A study of Saccharomyces cerevisiae with 3 samples.

Results

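The 10 genes described here encode transporters of the mitochondrial carrier family of budding yeast (Saccharomyces cerevisiae): AAC1 (YMR056C), PET9 (YBL030C), MIR1 (YJR077C), CTP1 (YBR291C), DIC1 (YLR348C), OAC1 (YKL120W), ODC1 (YPL134C), ODC2 (YOR222W), CRC1 (YOR100C) and ORT1 (YOR130C). They were chosen by gene symbol from 5449 measured yeast genes. The rule does not use their values, but it was set with earlier results of these data known. Each gene was read by a single probe set, so all 10 were measured. Transcript levels were compared on single-colour Affymetrix arrays between 2 samples of cells without RPA12, a gene for a small subunit of RNA polymerase I, and 1 sample of wild-type cells. Both groups are labelled as BY4741, a haploid laboratory strain of mating type a (MATa) with his3Δ 1, leu2Δ 0, met15Δ 0 and ura3Δ 0, grown at 30 °C in synthetic medium without treatment and harvested in stationary phase. The wild-type sample carries a growth protocol that names RPA12Δ cells, while its genotype label and description say wild type; genotype labels were followed. Nothing in the labels says that the RPA12 deletion arrays came from separate cultures, and the p-values may reflect no more than technical spread.

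Mitochondrial carriers are small proteins of the inner mitochondrial membrane, built from repeats of a paired-helix module, that exchange metabolites, nucleotides and cofactors between cytosol and matrix. Their number and kind set which compounds can cross this otherwise tight membrane: ADP, ATP and phosphate for ATP synthesis, organic acids for gluconeogenesis and amino acid synthesis, acylcarnitine for acetyl units, and ornithine for arginine synthesis. Most are imported without a cleaved presequence through the TIM22 translocase.

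Several genes went against the labels of the arrays, so the groups are named by their labels, and each direction is that of the deletion-labelled arrays relative to the array labelled wild type. RPA12 itself read 5.74 and 5.79 on the deletion-labelled arrays, against 3.60 on the wild-type array (log2 scale); the position of its probes in the gene is not known here, and probes outside the deletion would check nothing. MET17, the gene named met15 in the genotype, read 9.43 and 9.36 against 1.56, and LYS2 read 1.42 and 0.97 against 6.08. HIS3 read 9.27 and 9.30 against 6.73, while LEU2 and URA3 were at most 1.91 on any array. The position of the HIS3 probes is not known here either, so its signal need not go against the genotype. Of 4 genes specific to α cells all were higher and 3 passed the test and fold rule given with the carrier genes, with summed linear signals of 694.9 and 636.1 on the deletion-labelled arrays against 51.9 on the wild-type array, where MF(ALPHA)1 lay under the background level. Of 7 genes specific to a cells MFA2 fell 4.62-fold, and ASG7 and BAR1 rose, though by under 2-fold after both other scalings described below. The other 4 did not pass: MFA1 differed by -0.60, STE2 by 0.76 and STE6 by 0.13, and AGA2 read the same on all arrays. The median of the 7 was 0.13, against 0.19 for all tested probe sets. It was -0.14 and -0.12 after those scalings (quantile normalization again and median centring). The direction of these genes as a set is therefore not settled. Spiked-in poly-A transcripts, added before labelling, had medians of 3.14 and 3.16 against 6.95, and hybridization controls 5.87 and 5.49 against 8.59. Taken probe set by probe set, the median difference was -3.81 for the poly-A transcripts and -1.48 for the hybridization controls. The 3′ probe set of ACT1 exceeded its 5′ probe set by 1.98 and 2.18 against 2.02 on the log2 scale. The part of strain, mating type or array processing in the results below was not tested.

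Of the 10 carrier genes, 4 rose and 5 fell, while the median difference of all tested probe sets was 0.19. On the deletion-labelled arrays OAC1, ODC2, ORT1 and CTP1 were higher, and CRC1, ODC1, MIR1, PET9 and AAC1 were lower. In these bulk samples, fewer cells that express a gene and less RNA of it per cell cannot be told apart. "Rose" and "fell" stand for a limma adjusted p under 0.05 (Benjamini-Hochberg over 5498 probe sets) together with a difference of at least 2-fold, a rule met by 34% of all tested probe sets, 23.8% higher and 10.2% lower. The adjusted p alone passed for 80.2% of them, down to a difference of 0.00265, and the fold alone for 35.3%; 44.2% of the probe sets had equal values on both deletion-labelled arrays. No carrier gene of the 10 had such equal values, and their gaps between these arrays lay between 0.0030 and 0.335. Values were also shared between probe sets, with 2788 and 2757 distinct values for 10928 probe sets on the deletion-labelled arrays. On replicate 1 CTP1 and MFA2 both read 6.00723, and on replicate 2 CRC1 and HAP2 both read 5.58663. The effect of such sharing on the gaps, and so on the p-values of the 10 genes, was not tested. In all 10 the groups did not overlap, which was also so for 90.4% of the tested probe sets. With 3 arrays, an exact two-sided permutation test of a single gene cannot go below p = 0.333, so the calls rest on the spread pooled by limma and on the assumption that the lone wild-type array varies like the others. Every value of the 10 genes lay above the highest background level of the arrays, 1.84.

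**Figure D1:**
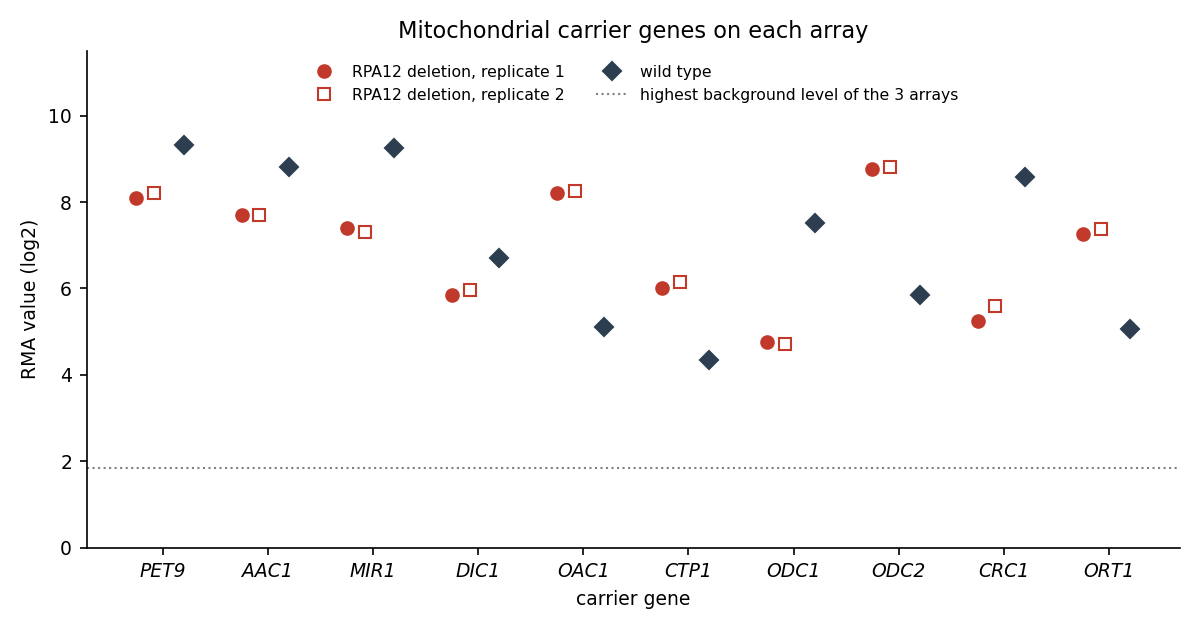
RMA value (log2, vertical axis) of the 10 carrier genes (horizontal axis) on each array, with red circles and open red squares for replicates 1 and 2 labelled RPA12 deletion, dark diamonds for the wild-type array, and a dotted line at the highest background level, 1.84. The red points of a gene lie close together, at most 0.335 apart, and the wild-type point lies above them for 6 genes and below them for 4.

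PET9, AAC1 and MIR1, which serve ATP synthesis, were lower. PET9, the major ADP/ATP carrier of aerobic cells, read 8.09 and 8.21 on the deletion-labelled arrays, against 9.33 on the wild-type array. Its difference of -1.18, or 2.27-fold lower, passed with a limma adjusted p = 0.0360. AAC1, a minor isoform of the same carrier, read 7.70 and 7.70 against 8.80, which was 2.15-fold lower (difference -1.11, limma adjusted p = 6.58e-04). Both genes were thus lower by nearly the same amount, and their differences were 0.074 apart. MIR1, the main phosphate carrier, read 7.40 and 7.31 against 9.25. It was 3.71-fold lower, with a difference of -1.89 (limma adjusted p = 0.0147). Each of these genes stood lower on both deletion-labelled arrays, by several times the gap between them. That gap may hold technical spread only, and both differences use the same wild-type array. Isoforms of the ADP/ATP carrier are close in sequence, and probe sequences were not used here, so signal shared between PET9, AAC1 and AAC3 cannot be told apart.

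The remaining isoform, AAC3, known as the ADP/ATP carrier of cells short of oxygen, moved the other way. It read 3.90 on both deletion-labelled arrays against 1.59 on the wild-type array, under the background level of 1.84 there. It was at least 4.17-fold higher (limma adjusted p = 9.15e-05). With equal values on both deletion-labelled arrays, this p-value rests on no measured spread of the gene itself. PIC2, a carrier of copper and phosphate, read 9.16 and 9.21 against 8.84, under 2-fold apart. The difference between 2 genes within an array is not altered by centring the arrays, and by this measure PIC2 shifted by 2.23 against MIR1.

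The organic acid carriers split. OAC1, which carries oxaloacetate and also α-isopropylmalate, an intermediate of leucine synthesis, read 8.20 and 8.25 against 5.12 on the wild-type array. It was 8.61-fold higher, with a difference of 3.11 (limma adjusted p = 0.0054), and 143 of the 5498 probe sets, itself included, had at least as large a positive difference. CTP1, the citrate carrier, read 6.01 and 6.16 against 4.34, a 3.35-fold rise (difference 1.74, limma adjusted p = 0.0284). For both genes the 2 deletion-labelled arrays were the high ones. DIC1, the dicarboxylate carrier that brings malate or succinate into the matrix in exchange for phosphate, read 5.85 and 5.97 against 6.69. Its difference of -0.79 (SE 0.094) did not pass, with a limma adjusted p = 0.0537 and a fold under 2. Both deletion-labelled arrays lay below the wild-type array for DIC1, and after each array was centred on its median the difference was -1.04 and passed (limma adjusted p = 0.0055).

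ODC1 and ODC2 carry the same compounds, 2-oxoglutarate and 2-oxoadipate, and moved in opposite directions. ODC1 read 4.77 and 4.71 on the deletion-labelled arrays, against 7.52 on the wild-type array. It was 6.87-fold lower (difference -2.78, limma adjusted p = 0.0077), among the 97 largest falls of all tested probe sets. ODC2 read 8.77 and 8.80 against 5.85, a 7.63-fold rise (difference 2.93, limma adjusted p = 0.0030) that was among the 174 largest. The wild-type array was thus the high one for ODC1 and the low one for ODC2. The ODC2 value minus that of ODC1 was 3.998 and 4.093 within the deletion-labelled arrays and -1.67 within the wild-type array. The shift between the groups was 5.71. Since the probe sets of the 2 genes need not respond alike, it shows that the genes changed unequally, and not which transcript was the more abundant.

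CRC1 and ORT1, which serve acetyl transfer and arginine synthesis, also differed in direction. CRC1, the carnitine and acylcarnitine carrier, read 5.25 and 5.59 against 8.59 on the wild-type array. It was 8.98-fold lower, with a difference of -3.17 (limma adjusted p = 0.0350), and was the 68th largest fall. The gap of 0.335 between its values on the deletion-labelled arrays was the largest of the 10 genes, and both lay far below the wild-type value. ORT1, also known as ARG11, the carrier that exports ornithine from the matrix, read 7.26 and 7.39 against 5.06. It was 4.82-fold higher, with a difference of 2.27 (limma adjusted p = 0.0177), both deletion-labelled arrays being high.

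**Figure D2:**
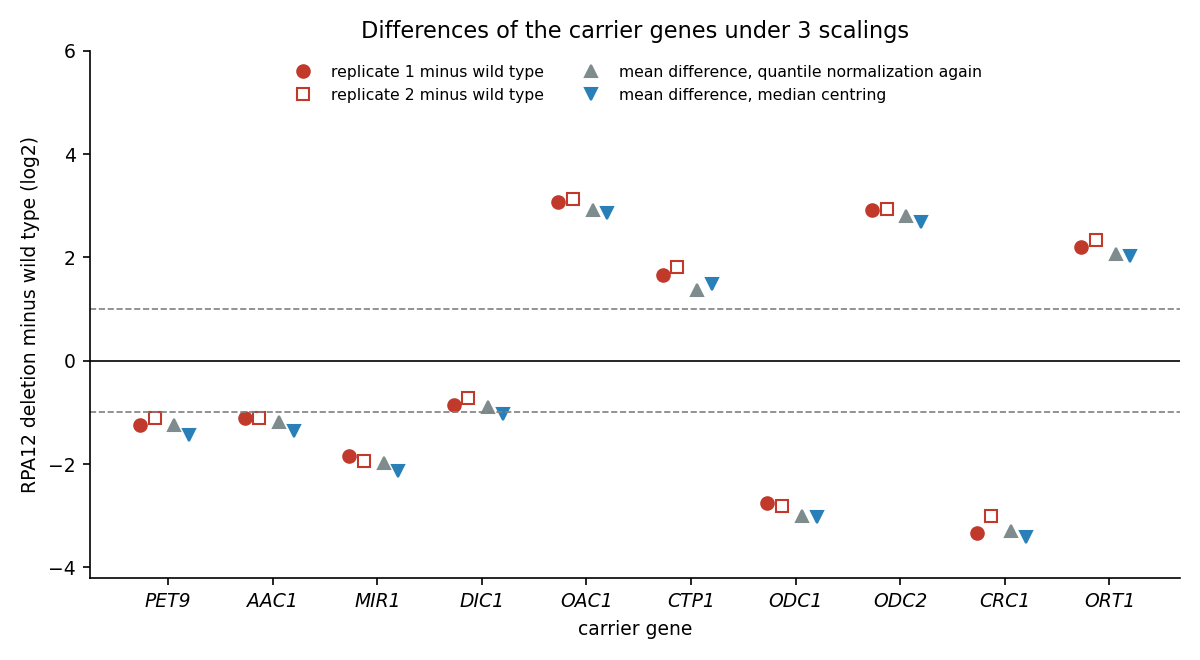
Difference between RPA12 deletion and wild type (log2, vertical axis) of the 10 carrier genes (horizontal axis), with red circles and open red squares for each deletion-labelled array minus the wild-type array, and triangles for the mean difference after quantile normalization again (grey) and after median centring (blue). Dashed lines mark a 2-fold difference; no gene changes side of 0, and DIC1 passes the lower line only after median centring, at -1.04.

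Set among all tested probe sets, the 10 genes lay on both sides and mostly past the 2-fold lines. Their median difference was -0.95, against 0.19 for all tested probe sets, though the genes formed a lower and a higher set, with none between -0.79 and 1.74. Relative to the median of all probe sets, the differences ran from -3.36 for CRC1 to 2.91 for OAC1. Another scaling moved the median of all probe sets by -0.15 (quantile normalization again) or -0.25 (median centring), and the share of higher among all calls was 70.0% as deposited, 56.6% and 55.9% under those scalings. The balance of rises and falls over all genes is therefore not settled, while the 4 rises and 5 falls of the carriers were called under each of those scalings, with DIC1 as a further fall under median centring.

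**Figure D3:**
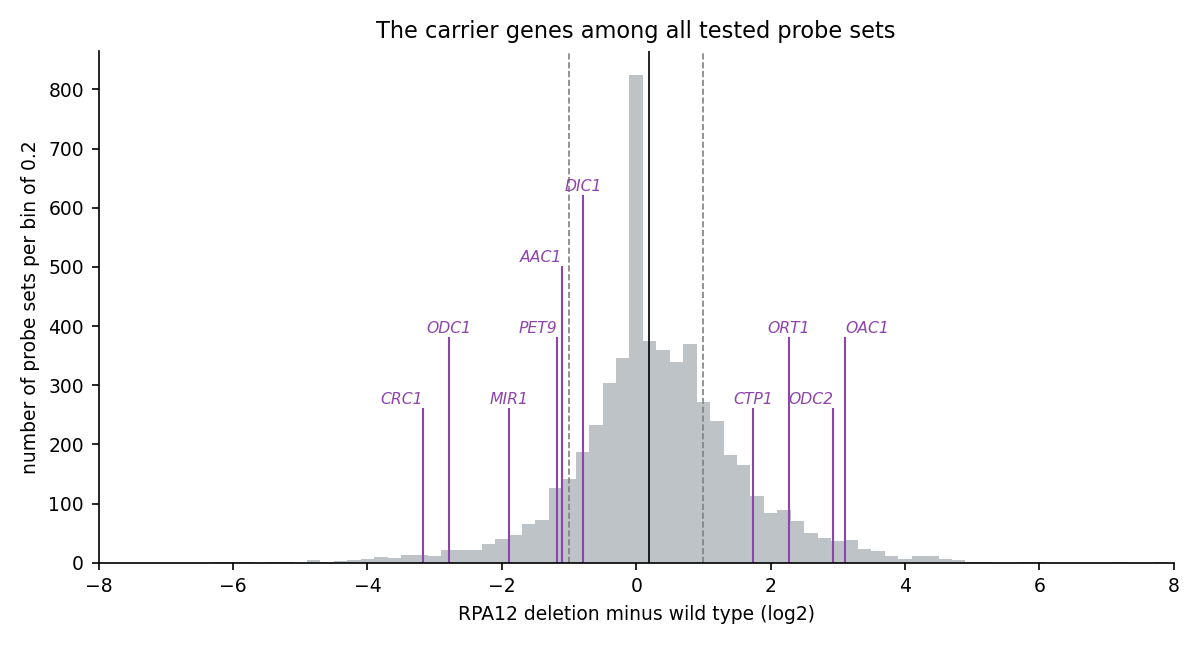
Histogram of the difference between RPA12 deletion and wild type (log2, horizontal axis) over the 5498 tested probe sets (vertical axis, number per bin of 0.2), with purple lines of arbitrary height at the 10 carrier genes, a black line at the median of 0.19 and dashed lines at 2-fold. DIC1, at -0.79, is the one carrier gene inside the dashed lines.

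Of 25 other genes of the carrier family, 23 had a named probe set. Of these, 11 rose (47.8%) and 2 fell (8.7%), beside 23.8% and 10.2% of all tested probe sets. YFR045W and YPR011C were not analysed here. The median difference of the 23 was 0.88, which became 0.48 after quantile normalization again and 0.63 after median centring. SFC1, which exchanges cytosolic succinate for matrix fumarate, read 4.21 and 4.32 against 8.01 on the wild-type array and was 13.4-fold lower (limma adjusted p = 0.0092). It was lower than CRC1 in its difference, at -3.75, and UGO1, a relative of the family that acts in outer-membrane fusion, was the other fall at -1.13. DIC1, which like SFC1 carries succinate, differed from it by a shift of 2.96 within the arrays.

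Beside AAC3, 10 of the other carriers rose. HEM25, a glycine carrier that serves heme synthesis, had the largest, at 5.23 and 5.33 against 2.28, or 8.02-fold higher (limma adjusted p = 0.0106). YMC2 rose 7.82-fold and its paralog YMC1 4.68-fold. PET8, the carrier of S-adenosylmethionine, rose 5.15-fold to 6.45 on both deletion-labelled arrays, against 4.08. FLX1, which serves flavin transport, rose 4.73-fold, and GGC1, the GTP/GDP carrier, rose 4.45-fold. AGC1, the aspartate and glutamate carrier, was 3.14-fold higher, TPC1, which carries thiamine pyrophosphate, 2.96-fold, MME1, a magnesium exporter, 2.36-fold, and ANT1, the adenine nucleotide carrier of peroxisomes, 2.24-fold. These last 4 were under 2-fold after quantile normalization again, and MME1 and ANT1 also after median centring. Among the 10 that did not pass, the largest differences were those of RIM2 (0.88), YEA6 (0.81), MRS4 (0.76), YIA6 (-0.68), LEU5 (-0.41) and YHM2 (-0.38). After quantile normalization again YIA6 was at -1.38 and passed as a further fall (limma adjusted p = 0.0017), while MRS4 had equal group means. YHM2 exchanges citrate for 2-oxoglutarate, and within the arrays CTP1 shifted by 2.13 against it. Equal values on both deletion-labelled arrays were found in 12 of the 23, among them AAC3, PET8, MME1 and UGO1, so that their p-values rest on no measured spread of their own.

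**Figure D4:**
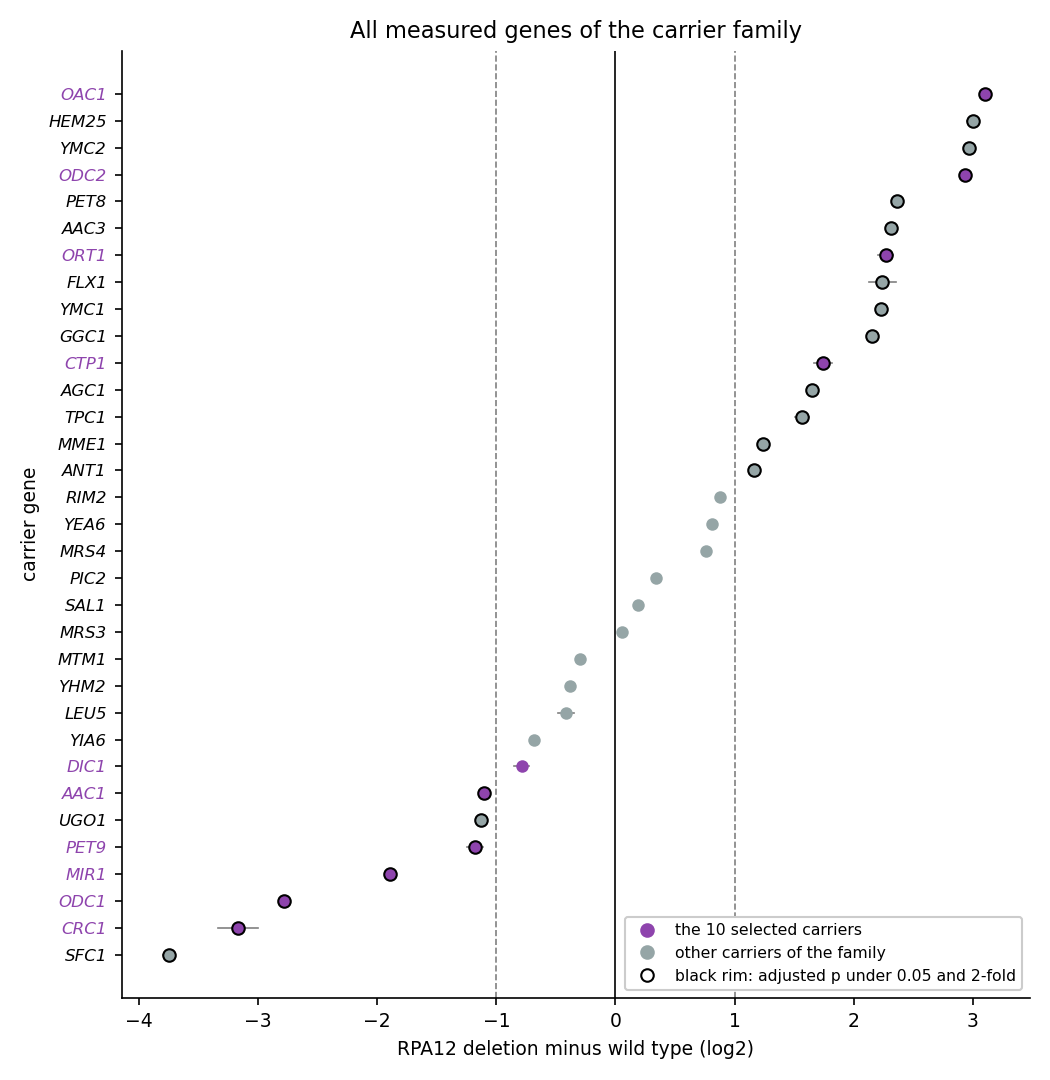
Mean difference between RPA12 deletion and wild type (log2, horizontal axis) of the 33 measured genes of the carrier family (vertical axis, sorted), with the 10 carriers described here in purple, other family members in grey, a black rim for adjusted p under 0.05 with at least 2-fold, and a thin line spanning both deletion-labelled arrays. The purple genes lie towards both ends of the family, from -3.17 (CRC1) to 3.11 (OAC1), with SFC1 below them at -3.75.

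Genes that act with the carriers were taken from 11 lists of 88 genes, 87 of them measured, of which 17 rose (19.5%) and 28 fell (32.2%), beside 23.8% and 10.2% of all tested probe sets. The carnitine list, whose enzymes make and use acetylcarnitine on either side of CRC1, was lower as a whole: 4 of 4 fell, with a median difference of -2.47. YAT1 and YAT2, carnitine acetyltransferases outside the mitochondrial matrix, were 11.7-fold and 3.47-fold lower, CAT2, the carnitine acetyltransferase of mitochondria and peroxisomes, 7.56-fold, and AGP2, a plasma membrane protein that serves carnitine uptake, 4.06-fold. Their differences of -3.55, -1.79, -2.92 and -2.02 stand beside -3.17 for CRC1. ARG5,6 was not analysed, and of 6 measured genes of ornithine and arginine synthesis 5 rose, none fell, and the median difference was 2.72, beside 2.27 for ORT1. ARG7, which releases ornithine in the matrix, rose 16.7-fold and ARG8 4.56-fold. On the cytosolic side, ARG3, which uses the exported ornithine, rose 9.72-fold, ARG4 9.53-fold and ARG1 2.21-fold, the last under 2-fold after median centring.

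The leucine and branched-chain list was mostly higher, like OAC1, and the list of citrate enzymes was lower, unlike CTP1. Of 9 leucine and branched-chain genes, 5 rose and 1 fell (median difference 1.43). BAT1, the mitochondrial aminotransferase, rose 12.4-fold, while BAT2, its cytosolic counterpart, fell 2.05-fold. LEU9 and ILV3 each rose 6.41-fold, ILV2 rose 2.82-fold and LEU1 2.69-fold. Of 7 measured citrate and isocitrate genes 5 fell, none rose, and the median difference was -1.31. CIT3, a citrate synthase of mitochondria, fell 10.1-fold, IDP2, the cytosolic isocitrate dehydrogenase, 6.26-fold, ACO1, aconitase, 3.45-fold, CIT1 2.38-fold and CIT2 2.02-fold, the last under 2-fold after quantile normalization again.

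For DIC1, 7 of 8 genes of gluconeogenesis, the glyoxylate cycle and malate metabolism fell, none rose, and the median difference was -3.23, beside -0.79 for DIC1 itself. FBP1 was 18.1-fold, MLS1 15.4-fold, PCK1 10.7-fold, MDH2 9.93-fold and PYC1 8.90-fold lower. The lysine list, from the pathway that makes and uses 2-oxoadipate, had 1 rise and 1 fall among 6. Its median of 0.10 became -0.15 after median centring. The fall was LYS20, a homocitrate synthase, which read 7.59 and 7.69 against 9.26. The rise was LYS1, the last enzyme of the pathway, which read 7.68 and 7.68 against 5.80. LYS2, also of lysine synthesis, was listed with the strain genes and is not in these counts. It read 1.42 and 0.97 against 6.08 and fell at least 25.3-fold, to no more than the background level on both deletion-labelled arrays. LYS2 is one of the genes that went against the labels, and the part of strain in its fall was not tested. The list's median is that of the 6 listed genes only. For PET9, AAC1 and MIR1, 4 of 17 genes of ATP synthase and its regulators fell, none rose, and the median difference was -0.37; STF1 fell 2.41-fold, ATP1 2.39-fold, ATP3 2.22-fold and ATP2 2.17-fold.

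**Figure D5:**
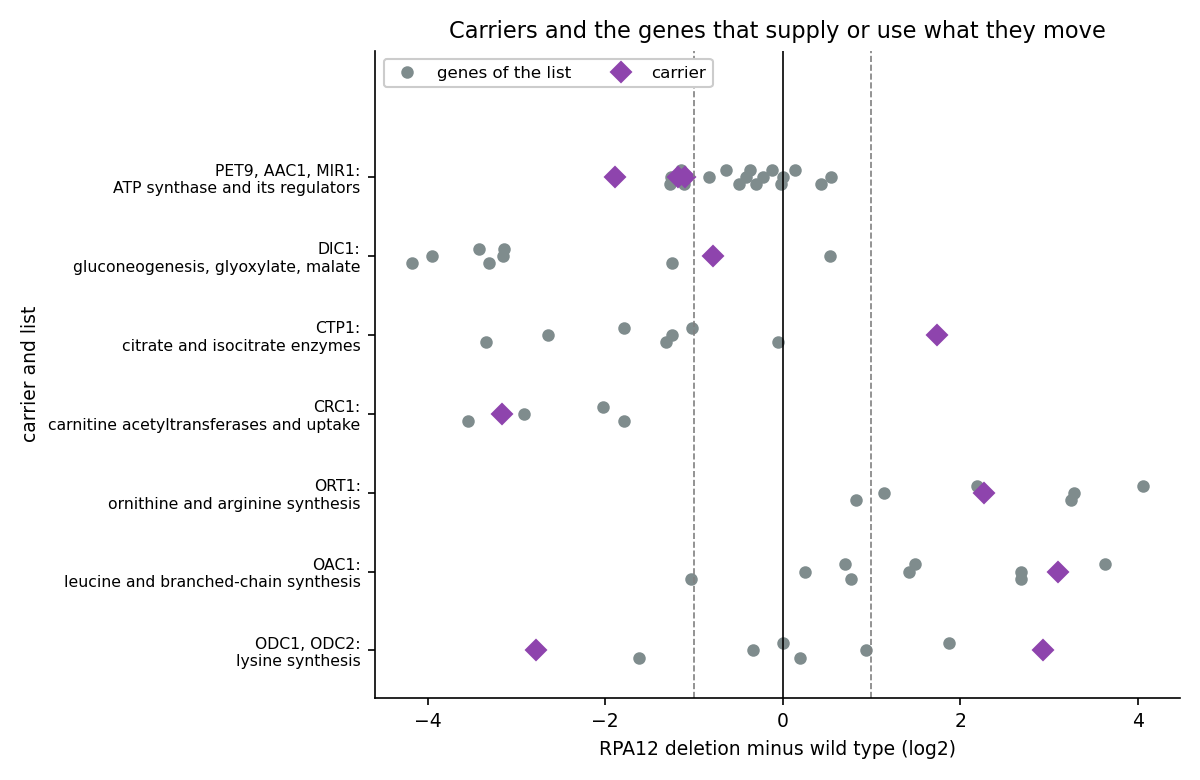
Difference between RPA12 deletion and wild type (log2, horizontal axis) of the carriers (purple diamonds) and of the genes of 7 lists that supply or use what they move (grey circles), one row per list on the vertical axis, with dashed lines at 2-fold. CRC1, ORT1 and OAC1 lie on the side of most genes of their list, while CTP1, at 1.74, lies apart from the citrate enzymes, whose median is -1.31.

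Genes for other routes across the mitochondrial membranes went in both directions. The pyruvate carrier is not of this family and pairs MPC1 with MPC2 in fermenting cells or with MPC3 in respiring cells. MPC2 read 10.70 and 10.74 against 9.04, or 3.22-fold higher (limma adjusted p = 0.0076), and MPC3 read 7.27 and 7.34 against 9.42, or 4.34-fold lower (limma adjusted p = 0.0109). MPC1 had a difference of -0.91, under 2-fold, which was -1.16 and passed after median centring. POR1, the main porin of the outer membrane, was 2.07-fold lower, and POR2, its second isoform, 3.26-fold higher. Among 10 genes for the import of carriers 3 rose (30%) and 1 fell (10%), beside 23.8% and 10.2% of all tested probe sets. Their median difference was -0.08. TIM12, which docks the small chaperones at the TIM22 translocase, rose 5.92-fold, and TIM13 fell 2.14-fold. TIM18 and TIM9, 2.18-fold and 2.03-fold higher, were under 2-fold after both other scalings.

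Regulators of carbon and amino acid metabolism were listed as well. Of 15, SIP4, ADR1 and CAT8, activators of genes for growth without glucose, fell 7.25-fold, 5.46-fold and 3.75-fold. HAP3, of the complex that activates respiratory genes, rose 3.24-fold, a rise under 2-fold after quantile normalization again, and the other 11 did not pass. Falls thus made up 20% of the list and rises 6.7%, beside 10.2% and 23.8% of all tested probe sets. The list's median difference was -0.04.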

How the data were processed

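The deposited values are log2 probe-set values that the authors made with RMA in Affymetrix Expression Console, per the submitters' processing notes, from 6 µg total RNA per array, per the labels' protocols. Versions, and whether all 3 arrays shared a run, are not stated there. RMA forces the probe intensities of a run onto one distribution and compresses differences near the floor. The deposited values did not share one: medians of tested probe sets were 5.74, 5.74 and 5.49, and 2788, 2757 and 5327 distinct values stood for the 10928 probe sets. For these, the platform annotation gave 1 symbol for 7244, several for 1 and none for 3683. Yeast genes numbered 5498 probe sets, named through the RefSeq table of assembly R64 (12 symbols updated), and the 1746 of another yeast species gave each array's background level, their 95th percentile: 1.42, 1.42 and 1.84. A group at or below it gets a bound ("at least").

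Differences are the mean of 2 arrays labelled RPA12 deletion minus 1 wild-type array, tested with limma 3.58.1 in R 4.3.3 (lmFit, eBayes, two-sided). The fit was run on simulated data to see that it returned the set differences. The simulation gave all 3 arrays the same spread, so it could not check that the wild-type array varies like the others. The number of arrays limits the precision. Members and lists were chosen with earlier results of these data known. Named were all 10 members, called carriers with the 6 largest others, and per list up to 5 called genes and all of lists up to 4. PIC2, BAT2, MRS3 and SAL1 were named after their values were seen. Figures used matplotlib 3.10.9.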

Additional observations from a re-analysis of the deposited data

How the results depend on the processing

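The 10 carrier genes kept the direction of their differences under every alternative tried, but most alternatives could not have changed it. A filter on dim probe sets and values raised to background leave genes above background on every array as they are. Limma with trend and either criterion of the call rule alone keep the same differences. Median centring and, chosen after seeing the data, differences relative to the median of all probe sets shift all genes alike. The larger shift was -0.25, and the smallest of the 10 differences was 0.79 in size. The alternatives that could move genes unequally were quantile normalization again and either array labelled RPA12 deletion left out. The side of the threshold changed once, for DIC1 under median centring (-1.04). Leaving out an array leaves no residual degrees of freedom, so these are values with no test, and they equal each deletion-labelled array minus the wild-type one. Among the other carriers, 7 in place of 11 were higher and 3 in place of 2 lower after quantile normalization again. By limma's adjusted p alone 22 of the 23 were called, 17 higher and 5 lower, beside 80.2% of all tested probe sets. MRS3 reversed to -0.68 and -0.19, and SAL1 to -0.48 and -0.064, under quantile normalization again and median centring. Median centring lowers every difference by the same amount; for quantile normalization the cause was not tested. By adjusted p alone 74 of the 87 measured genes of the partner lists were called, 30 higher and 44 lower, beside the same 80.2%. With so large a share over all probe sets, these counts say little about the carriers or the lists. No member had another probe set to try. No paired analysis was possible because the wild-type group has 1 array and its label carries no replicate number. The 10 genes lay above background on every array, and each comparison rests on a single wild-type array. The part of the label and control differences in them was not tested.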
